A study of Mus musculus with 4 samples.

Results

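Chemokines are small secreted proteins that steer the movement of cells, and they are named CC, CXC, CX3C or XC after the spacing of their first cysteines. They act on receptors that span the cell membrane and couple to inhibitory G proteins. In skin they are best known for drawing leukocytes to sites of inflammation, while a few, Cxcl12 and Cxcl14 among them, are also made in tissue at rest. The genes described here are those whose symbol is Cxcl, Ccl, Cxcr or Ccr with a number, together with Cx3cl1, Cx3cr1, Xcl1 and Xcr1. They were taken from probe sets that name exactly 1 gene. The rule gave 51 of the 19938 genes of the table, from 56 of 28853 probe sets. Of these, 34 genes encode ligands and 17 encode receptors.

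The dermal papilla is a cluster of mesenchymal cells that sits under the growing hair and signals to it. Its cells were taken from mouse skin at postnatal day 5 and profiled on expression arrays. The cells were sorted as double positive for a Sox2 green fluorescent protein reporter and integrin alpha 9, both in Sox2 conditional knockout animals (cKO, 2 arrays) and in Sox2 heterozygous animals (Het, 2 arrays). All samples thus passed the same sort on the reporter, and the control is a heterozygote, not a wild type. The labels name no Cre line, driver, sex or pooling of animals, so a p-value here covers only the spread between these samples, part of which may be technical. Each value is a log2 value relative to the probe set's median over the 4 arrays. Levels, detection and the ratio of one gene to another cannot be read from such values, and the labelled cell type cannot be checked through the presence or absence of markers. The middle 2 of the 4 arrays always lie at equal distances from 0 for a gene with 1 probe set, which holds for 49 of the 51 genes. In sorted cells, fewer cells of a type and less RNA per cell cannot be told apart.

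Sox2 checks the labels: it stood at -0.87 and -0.94 in the cKO arrays, against 0.96 and 0.87 in the Het arrays. The cKO minus Het difference of Sox2 was thus -1.81 ± 0.06 (SE, n = 2 arrays in each group), and differences are given in that direction throughout. Where its probe set lies relative to the deletion was not analysed here. X- and Y-linked genes also differed between the groups, with Xist at 0.85 and 1.23 in the cKO arrays and at -4.08 and -0.85 in the Het arrays. Eif2s3y, a Y-linked gene, was at -0.87 and -0.79 in the cKO arrays and at 1.18 and 0.79 in the Het arrays, and Kdm5d, also Y-linked, differed by -0.75 ± 0.14. For these 3 genes the difference ran along with genotype in all 4 arrays. In the chemokine values it therefore cannot be told apart from genotype, and its part in them was not tested.

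The sequences upstream of Cxcl14, Cxcr4 and Cxcl1 are shown because the first has the largest difference of the family, the second the largest among its receptors, and the third the widest spread within groups. They are the 250 bases before the gene start in RefSeq's annotation of GRCm38.p6, 5′ to 3′ on the strand of the gene. The Cxcl14 window is chr13:56296552-56296801 on the minus strand, the Cxcr4 window chr1:128592300-128592549 on the minus strand and the Cxcl1 window chr5:90890995-90891244 on the plus strand. Capitals mark matches to the NF-kappaB consensus.
Cxcl14: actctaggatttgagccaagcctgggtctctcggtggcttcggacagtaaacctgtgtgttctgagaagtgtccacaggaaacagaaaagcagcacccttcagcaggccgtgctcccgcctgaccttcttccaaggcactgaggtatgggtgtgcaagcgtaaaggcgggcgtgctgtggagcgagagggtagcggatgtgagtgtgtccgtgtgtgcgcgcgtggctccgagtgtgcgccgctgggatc
Cxcr4: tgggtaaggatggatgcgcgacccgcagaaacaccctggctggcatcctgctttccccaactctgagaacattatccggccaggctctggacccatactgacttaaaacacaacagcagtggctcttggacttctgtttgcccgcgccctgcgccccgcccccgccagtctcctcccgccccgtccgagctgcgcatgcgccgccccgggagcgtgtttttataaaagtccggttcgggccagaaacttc
Cxcl1: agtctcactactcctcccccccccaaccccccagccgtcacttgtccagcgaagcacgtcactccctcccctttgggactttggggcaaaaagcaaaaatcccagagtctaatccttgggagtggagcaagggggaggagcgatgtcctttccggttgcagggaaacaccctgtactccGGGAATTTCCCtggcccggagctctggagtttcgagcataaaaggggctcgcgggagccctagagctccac
Each window was searched on both strands for ACAATG and ACAAAG, letters recognised by the DNA-binding domain of SOX proteins, and for the NF-kappaB consensus, bound by the factor through which inflammatory signals induce many chemokines. The Cxcl14 and Cxcr4 windows held no match to any of them, which says only that these letters are not in these bases. The Cxcl1 window held 2 NF-kappaB matches, on opposite strands and overlapping, so they form 1 stretch. Windows were found for 37 of the 51 genes, 39 windows in all. Of these, 8 (20.5%) held the NF-kappaB consensus, against 3.9% of all 32851 windows of the same length. ACAATG was in 2 of the 39 member windows (5.13%), against 10.7% of all windows, and ACAAAG in 6 (15.4%), against 16.5%. The genes with an NF-kappaB match were Ccl9, Ccl20, Ccr3, Ccr6, Cxcl1, Cxcl2, Cxcl3 and Cxcl10. The base composition was 59.6% G and C in the Cxcl14 window and 61.2% in the Cxcr4 window, against a median of 52.4% over all windows.

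Cxcl14, a ligand made in skin without inflammation whose receptor is debated, had the largest difference of the family. It stood at 0.33 and 0.39 in the cKO arrays, against -0.33 and -0.46 in the Het arrays. Both cKO arrays were above both Het arrays, and the gap between the groups was larger than the spread within either of them. The SD was 0.043 in cKO and 0.085 in Het. The difference was 0.76 ± 0.06 (SE, n = 2 arrays in each group), which is 1.69-fold higher in cKO. It did not pass the moderated test of limma adjusted over all genes (adjusted p = 0.885), while its unadjusted p was 5.0e-04. By size the difference ranked 62 among 19938 genes, and by unadjusted p it ranked 10. With each array left out in turn, the Cxcl14 difference lay between 0.70 and 0.82. An exact permutation test over the 4 arrays gave p = 0.333 (two-sided), which is the smallest that 6 arrangements allow. Every gene whose groups do not overlap gets this value, which held for 17.8% of all genes with cKO higher and 15.6% with cKO lower. The members, Cxcl14 among them, were chosen with earlier results of these data known.

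**Figure D1:**
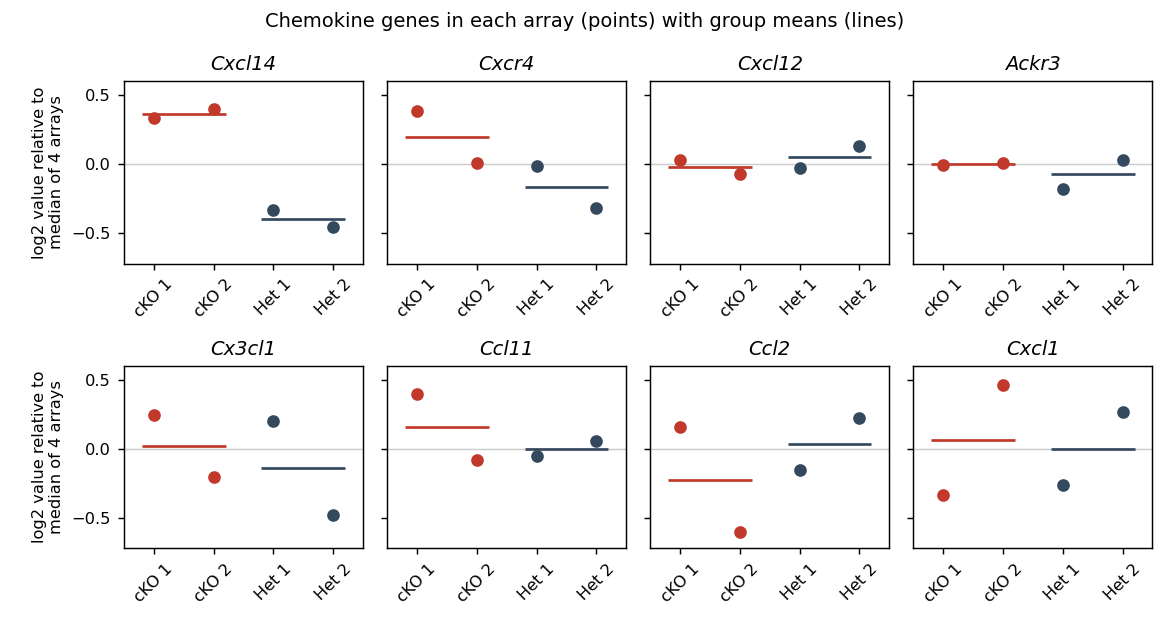
Log2 value relative to the median of the 4 arrays (vertical axis) in each array (horizontal axis) for 8 genes, cKO in red and Het in dark grey, with group means as lines. Cxcl14 has both cKO arrays at 0.33 or above and both Het arrays at -0.33 or below; Cxcl1 and Ccl2 spread widely within each group.

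Set against the rest of the family, Cxcl14 had a difference larger in size than any other member. The median of the other 50 genes was -0.0078 and 0.018 in the cKO arrays, and -0.025 and 0.0075 in the Het arrays, so those medians moved little. Cxcl14 minus that median was 0.34 and 0.38 in the cKO arrays, against -0.31 and -0.46 in the Het arrays. The difference of this quantity was 0.75, with an exact permutation p of 0.333 (two-sided), again the smallest possible. Because the medians of the other genes lay near 0, this repeats the result for Cxcl14 itself and adds no separate support. The second largest difference of the 51 genes was 0.36 for Cxcr4, and the third was -0.26 for Ccl2. Of the other 50 genes, 41 differed by less than 0.1 on the log2 scale.

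**Figure D2:**
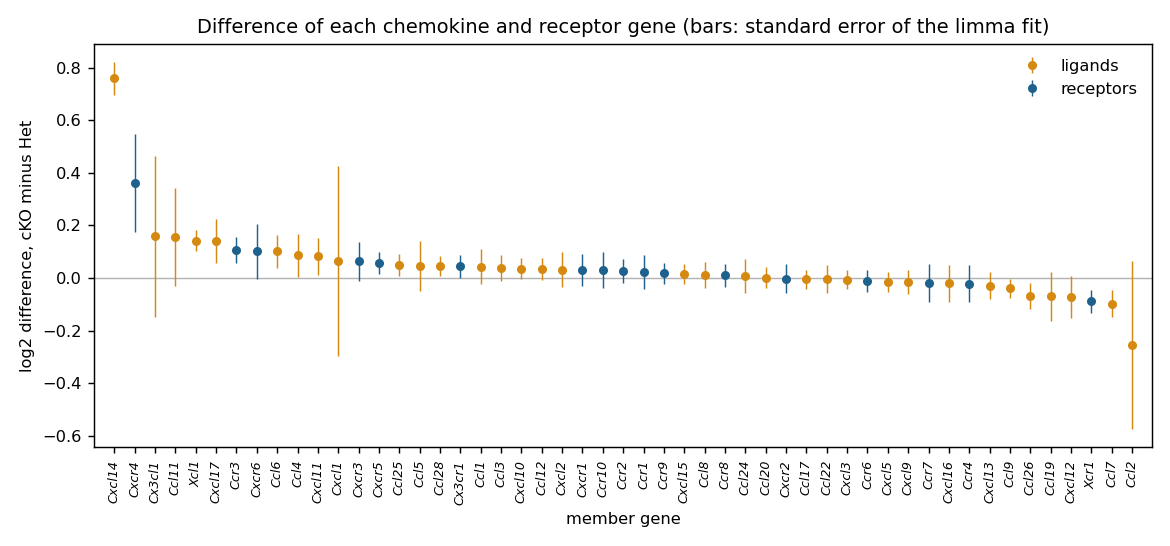
Log2 difference, cKO minus Het (vertical axis), of all 51 genes ordered by size (horizontal axis), ligands in orange and receptors in blue, with bars for the standard error of the limma fit. Cxcl14 is at 0.76, Cxcr4 at 0.36 and Ccl2 at -0.26, and 41 of the other 50 genes lie within 0.1 of 0.

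Over the whole family, 0 of 51 genes passed limma's test adjusted over all genes at 0.05, as did 0% of all 19938 genes. At an unadjusted p under 0.05 there were 2 members, Cxcl14 and Xcl1 (3.92%), against 5.28% of all genes. The groups did not overlap, with cKO higher, in 10 of 51 members (19.6%), against 17.8% of all genes. They did not overlap, with cKO lower, in 4 members (7.84%), against 15.6%. Cxcl14 was the 1 member with groups that did not overlap and a difference of at least 1.5-fold (1.96%), as were 0.647% of all genes. Apart from Cxcl14, these shares of small p-values and of groups without overlap were thus near or under those of the table as a whole. The median difference was 0.028 over the members and 0.0034 over all genes. In cKO 33 members were higher (64.7%, against 52.3% of all genes) and 18 lower (35.3%, against 47.7%), with no test of these shares. The ligands had a median of 0.023 and the receptors of 0.028. In 39 of the 51 genes all 4 arrays lay within 0.2 of each other, and the median SD over the 4 arrays was 0.059, against 0.064 over all genes.

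**Figure D3:**
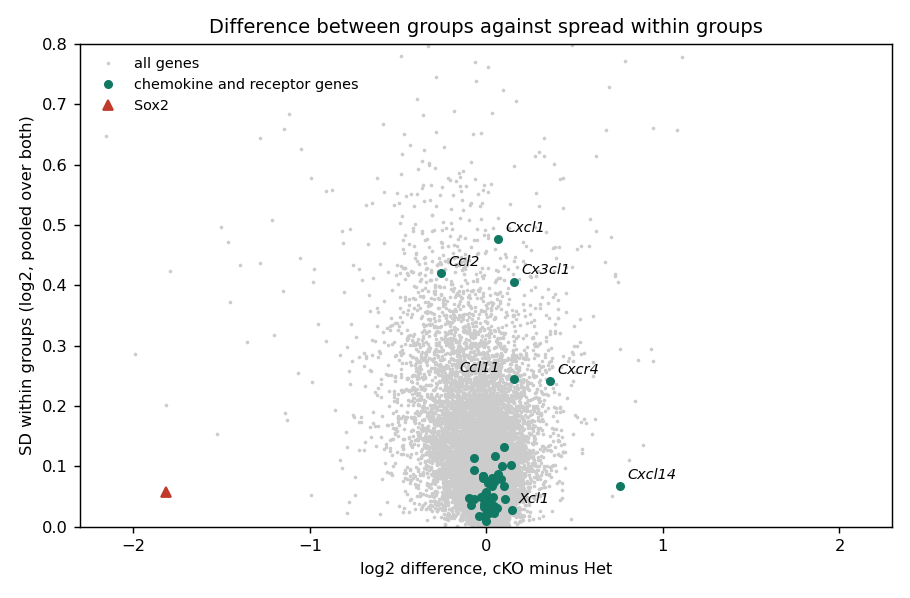
Log2 difference, cKO minus Het (horizontal axis), against the SD within groups pooled over both (vertical axis), with all genes in grey, the 51 members in green and Sox2 as a red triangle; 13 genes lie outside the axes. Cxcl14 combines a difference of 0.76 with a within-group SD of 0.067, while Cxcl1, Ccl2 and Cx3cl1 have within-group SDs over 0.4.

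Cxcr4, the receptor for the ligand Cxcl12, had the largest difference among the receptors. It stood at 0.39 and 0.011 in the cKO arrays, against -0.011 and -0.32 in the Het arrays. The groups did not overlap, but cKO replicate 2 and Het replicate 1 were nearly level. The difference was 0.36 ± 0.19 (SE, n = 2 arrays in each group), which is 1.28-fold higher in cKO, and limma did not call it (adjusted p = 0.961). It shrank to 0.17 without cKO replicate 1 and to 0.21 without Het replicate 2, and was 0.55 without cKO replicate 2 and 0.51 without Het replicate 1. Cxcl12, a ligand of stromal cells, stood at 0.029 and -0.072 in the cKO arrays and at -0.029 and 0.13 in the Het arrays. Its groups overlapped, and the difference was -0.07 ± 0.08 (adjusted p = 0.992, limma), turning to 0.0068 without Het replicate 2. Ackr3, which encodes an atypical receptor that takes up Cxcl12 without coupling to G proteins, was at -0.0064 and 0.0064 in the cKO arrays and at -0.18 and 0.031 in the Het arrays. These groups overlapped too, with a difference of 0.07 ± 0.09 that turned to -0.031 without Het replicate 1. Of this ligand and its receptors, Cxcr4 alone had groups that did not overlap.

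Xcl1, a ligand that attracts dendritic cells through Xcr1, stood at 0.094 and 0.052 in the cKO arrays, against -0.088 and -0.052 in the Het arrays. The groups did not overlap and the arrays of each group lay close together, but the difference was small, at 0.14 ± 0.04 (adjusted p = 0.936, limma). Its receptor gene Xcr1 was lower in both cKO arrays, at -0.019 and -0.060, than in the Het arrays, at 0.019 and 0.080. The difference of Xcr1 was -0.09 ± 0.04. The other 7 ligands and receptors higher in cKO with no overlap, Cxcl17, Ccr3, Ccl6, Cxcr5, Ccl25, Ccl28 and Cxcl10, had differences between 0.036 and 0.14. Besides Xcr1, the genes lower with no overlap were Ccl7, Ccl26 and Ccl9, at -0.10, -0.07 and -0.04. The adjusted p-values of these small differences ran from 0.936 to 0.992 (limma).

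Ccl2, a ligand that attracts monocytes through Ccr2, had the lowest difference of the 51 genes, and its arrays did not separate. It stood at 0.15 and -0.60 in the cKO arrays, and at -0.15 and 0.22 in the Het arrays. The low value was that of cKO replicate 2 alone. The difference of -0.26 ± 0.32 turned to 0.12 without that array and was -0.63 without cKO replicate 1. Without Het replicate 1 it was -0.44, and without Het replicate 2 it was -0.07. Ccl11, the eotaxin that draws eosinophils through Ccr3, likewise depended on 1 array. It was at 0.39 and -0.082 in the cKO arrays and at -0.056 and 0.056 in the Het arrays, so cKO replicate 1 stood above the rest. Its difference of 0.16 ± 0.19 turned to -0.082 without cKO replicate 1 and was 0.39 without cKO replicate 2. Cxcr6, the receptor of Cxcl16, was at -0.029 and 0.23 in the cKO arrays and at -0.031 and 0.029 in the Het arrays. Its difference of 0.10 ± 0.11 turned to -0.028 without cKO replicate 2.

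**Figure D4:**
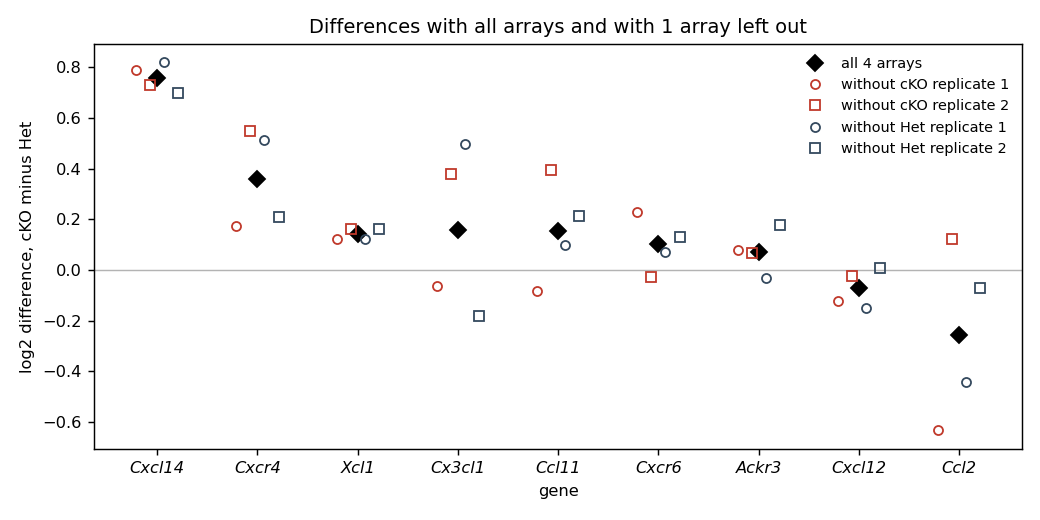
Log2 difference, cKO minus Het (vertical axis), of 9 genes (horizontal axis) with all 4 arrays (black diamonds) and with each array left out (open symbols, red for a cKO and dark grey for a Het array). Cxcl14 stays between 0.70 and 0.82, Cxcr4 lies between 0.17 and 0.55, and Cx3cl1, Ccl11, Cxcr6, Ackr3, Cxcl12 and Ccl2 cross 0.

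For Cx3cl1 and Cxcl1 the arrays differed by replicate number more than by genotype. Cx3cl1, a ligand made as a membrane protein that binds Cx3cr1, was at 0.24 and -0.20 in the cKO arrays and at 0.20 and -0.48 in the Het arrays. Both arrays labelled replicate 1 were above both labelled replicate 2. Its difference of 0.16 ± 0.31 was 0.50 without Het replicate 1 and turned to -0.18 without Het replicate 2 and to -0.064 without cKO replicate 1. Cxcl1, a ligand that attracts neutrophils through Cxcr2 and was singled out after its values were seen, showed the opposite order. It was at -0.33 and 0.46 in the cKO arrays and at -0.26 and 0.26 in the Het arrays. Both replicate 2 arrays were above both replicate 1 arrays, and the difference of 0.07 ± 0.36 turned to -0.33 without cKO replicate 2 and to -0.20 without Het replicate 1. Its SD within groups, 0.477, was the largest of the 51 genes. Nfkbia and Nfkbiz, inhibitor-family genes that NF-kappaB itself induces, had the same order of the 4 arrays, a likeness also noticed after the values were seen. Of the 21 genes on the NF-kappaB list it held for 3, these 2 and Nfkbie. The share of all genes with that order was not counted, and arrays of the same number deviated together over all genes (correlation 0.304). Cxcl2, whose window also held the consensus, ran the other way, at 0.10 and -0.036 in the cKO arrays and at 0.032 and -0.032 in the Het arrays. A part of NF-kappaB in these values was not tested. Nfkbia was at -0.57 and 0.40 in the cKO arrays and at -0.23 and 0.23 in the Het arrays. Nfkbiz was at -0.54 and 0.25 in the cKO arrays and at -0.20 and 0.20 in the Het arrays.

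Neighbouring genes had differences of both signs within the longer runs. Many chemokine genes lie side by side in the genome, and in the gene order of GRCm38.p6 a run of 6 ligand genes holds Ccl2, Ccl7, Ccl11, Ccl12, Ccl8 and Ccl1. In that order their differences were -0.26, -0.10, 0.16, 0.035, 0.013 and 0.044. A second run of 5, with Ccl5, Ccl9, Ccl6, Ccl3 and Ccl4, had differences of 0.047, -0.039, 0.10, 0.039 and 0.086. The receptor run of Ccr9, Cxcr6, Xcr1, Ccr1, Ccr3 and Ccr2 had differences between -0.09 and 0.11. The 4 neighbours Cxcl3, Cxcl15, Cxcl1 and Cxcl2, most of which act on neutrophils, lay between -0.0060 and 0.07. The interferon-induced ligands of Cxcr3, Cxcl9, Cxcl10 and Cxcl11, were at -0.016, 0.036 and 0.082. Cxcl14 and Cxcr4 have no other member beside them.

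Several other ligands and their receptors had small differences. Ccl20 was at 0.0017 and its receptor Ccr6 at -0.011. Ccl17 and Ccl22 were at -0.0049 and -0.0051 and their receptor Ccr4 at -0.021. The ligand Cxcl13 of B cell follicles was at -0.029 and its receptor Cxcr5 at 0.058, while Cxcl16 was at -0.021. Ccl19, a ligand that guides T cells and dendritic cells through Ccr7, had 5 probe sets, all lower in cKO, with differences between -0.12 and -0.048. Their mean was at -0.17 and 0.049 in the cKO arrays and at 0.035 and -0.019 in the Het arrays, so the groups overlapped. The low value was that of cKO replicate 1, and without it the difference of -0.07 ± 0.09 turned to 0.041. Ccr7 was at -0.020. Ccl25 had 2 probe sets that went opposite ways, at -0.0042 and 0.10, and its receptor Ccr9 was at 0.017. None of these pairs had both genes with groups that did not overlap. A further 7 probe sets, shared by near-identical copies of the Ccl21 and Ccl27 genes, name several genes and were left out. Their differences lay between -0.46 and 0.066, so the lowest of them was below that of Ccl2. The rankings given here hold only among genes with a probe set of their own.

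Genes that act with the chemokines were described as lists, with no test of a list. Of 9 atypical receptors and regulators, 0 passed over all genes, and 1, Dpp4, was higher and 1, Pitpnm3, lower in cKO with no overlap (median difference 0.011). Pitpnm3 was at -0.03 ± 0.04. Dpp4, which encodes a protease that trims and inactivates several chemokines, was at 0.26 and 0.032 in the cKO arrays and at -0.032 and -0.076 in the Het arrays. Its difference was 0.20 ± 0.09, and 0.086 without cKO replicate 1. Of 31 genes of receptor signalling, 0 passed, 7 were higher and 3 lower with no overlap (median 0.022). Gnai1 and Gnai3, which encode inhibitory G protein subunits, were higher by 0.25 ± 0.07 and 0.21 ± 0.10. Gnai2, which encodes another such subunit, went the other way at -0.21 ± 0.21, with groups that overlapped. The beta subunit gene Gnb1 was at -0.29 ± 0.16. Without Het replicate 2, Gnai3 shrank to 0.094, and without Het replicate 1, Gnb1 shrank to -0.088. Of 21 NF-kappaB pathway genes, 0 passed, 1 was higher and 4 lower with no overlap (median -0.0072). Icam1, an adhesion gene that NF-kappaB induces, was the higher one at 0.27 ± 0.16, which shrank to 0.065 without cKO replicate 2, and the kinase gene Ikbkb was at -0.15 ± 0.07, or -0.075 without Het replicate 2. Tnip1, whose product restrains NF-kappaB, was at -0.06 ± 0.04. Of 28 genes of inflammatory cytokines and their receptors, 0 passed, 2 were higher, Tnf and Lif, and 6 lower with no overlap (median -0.014). Tnf was at 0.12 ± 0.08, and at 0.027 without cKO replicate 2, and Lif was at 0.11 ± 0.04. The interferon gamma receptor gene Ifngr1 was at -0.26 ± 0.11, and at -0.13 without Het replicate 2. With no overlap, 11.1% of the atypical receptors and regulators were higher and 11.1% lower, and 22.6% and 9.68% of the receptor signalling genes. For the NF-kappaB pathway the shares were 4.76% and 19.0%, and for the cytokines and their receptors 7.14% and 21.4%. Among all genes 17.8% were higher and 15.6% lower with no overlap.

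Markers of the cells that a skin sort could also hold were set beside these values, again against 17.8% of all genes higher and 15.6% lower in cKO with no overlap. Of 41 leukocyte markers, 5 were higher (12.2%) and 6 lower (14.6%) with no overlap, shares under those of all genes, and all differences lay between -0.073 and 0.11. Their median was -0.0024 and 0.0011 in the cKO arrays, and -0.0095 and 0.0047 in the Het arrays. Cd8a of T cells was at 0.11 ± 0.04, and Tyrobp and Cd74 of myeloid and antigen-presenting cells were at -0.07 ± 0.05 and -0.06 ± 0.05. Other T cell markers did not follow Cd8a: Cd3d, Cd3e, Cd3g and Cd4 overlapped, at 0.017, -0.00052, 0.018 and 0.032, and Cd2 was lower at -0.051. Of 18 endothelial markers, 5 were higher (27.8%) and 2 lower (11.1%) with no overlap, Pecam1 at 0.07 ± 0.04, Tie1 at 0.06 ± 0.04 and Esam at -0.05 ± 0.04 among them. With or without overlap, 10 of the 18 were lower in cKO (55.6%, against 47.7% of all genes), and the median difference was -0.010. The largest difference of that list, -0.13 for Cdh5, had groups that overlapped. The 12 melanocyte markers all had groups that overlapped. Their median was -0.040 and 0.050 in the cKO arrays, and -0.068 and 0.11 in the Het arrays. Both replicate 2 arrays were thus above both replicate 1 arrays.

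Most keratinocyte and fibroblast markers had a lower mean in cKO, with no test of either list. The shares with no overlap below compare with 17.8% of all genes higher and 15.6% lower in cKO. Of 20 keratinocyte markers 18 were lower in cKO (90%, against 47.7% of all genes), 6 of them with no overlap (30%). Their median stood at -0.040 and -0.00079 in the cKO arrays, against -0.059 and 0.20 in the Het arrays, so Het replicate 2 was high. The integrin gene Itga6 was at -0.52 ± 0.17 and the keratin genes Krt10 and Krt79 at -0.33 ± 0.11 and -0.17 ± 0.10. Of 17 dermal fibroblast markers 14 were lower (82.4%), 6 with no overlap (35.3%), with a median of -0.0043 and -0.088 in the cKO arrays, against 0.086 and 0.085 in the Het arrays. The matrix genes Lum, Fbln1 and Col1a2 were at -0.54 ± 0.12, -0.38 ± 0.14 and -0.37 ± 0.21. For Col1a2, cKO replicate 1 and Het replicate 2 were nearly level at -0.00080 and 0.00080, while cKO replicate 2 was at -0.52. Of 12 Schwann and glial markers, 1 was higher, Gfra3 (8.33%), and 3 lower (25.0%) with no overlap, and the median difference was -0.08. The lower ones were Egr2 at -1.35 ± 0.23, Fabp7 at -0.82 ± 0.08 and Erbb3 at -0.12 ± 0.06. Sox10, also on that list, had overlapping groups at -0.11 ± 0.11. Of 27 dermal papilla markers, 6 were higher (22.2%) and 8 lower (29.6%) with no overlap. Among them 8 had an unadjusted p under 0.05 (29.6%, against 5.28% of all genes), and 6 differed at least 1.5-fold with no overlap (22.2%, against 0.647%), with Ndnf at 1.08 ± 0.50 and Snap91 at -1.13 ± 0.14. That list holds Sox2 itself and was chosen with earlier results of these data known, so its shares are a description. None of these markers passed over all genes (limma), and the part of other cell types in the chemokine values was not tested.

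**Figure D5:**
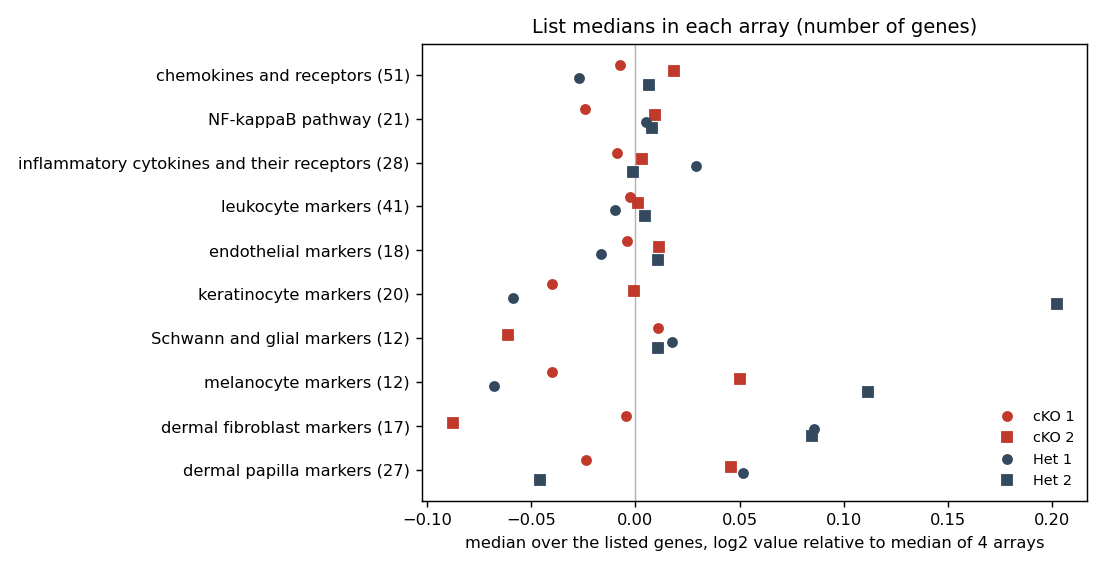
Median of the log2 values relative to the median of the 4 arrays (horizontal axis) over each list of genes (rows, with the number of genes) in each array, cKO in red and Het in dark grey, circles for replicate 1 and squares for replicate 2. The chemokine and leukocyte medians lie within 0.03 of 0, and the keratinocyte median reaches 0.20 in Het replicate 2.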

How the data were processed

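Gene expression was measured in 4 arrays. The authors deposited log2 values from RMA, according to the submitters' processing notes; base 2 is RMA's usual output and was assumed, because the table does not state it. No RMA version, genome build or centring step is named in the labels. In the deposited table every probe set has a median of 0 over the 4 arrays, so no filter on dim probe sets was possible. The number of arrays limits the precision.

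The platform annotation supplied gene names: 21789 named 1 gene, 1621 several and 5443 had no listed gene. Each gene was given the mean of its probe sets. All 19938 genes were fitted in R 4.3.3 with limma 3.58.1 (lmFit, eBayes, group as the only term, two-sided), adjusted by Benjamini-Hochberg over all genes at 0.05, on 2 residual degrees of freedom. It was checked on simulated data. Those values were drawn independently for each array, so arrays of the same number deviating together were not covered. The changes planted in them were larger than the Cxcl14 difference. Figures were drawn with matplotlib 3.10.9.

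The members and lists were chosen with earlier results of these data known. Genes named were Cxcl14, Cxcl12, Cxcr4 and Ackr3; members with no overlap and an absolute difference of at least 0.2, or an unadjusted p under 0.05; the 4 largest differences among members with overlap; and the 3 largest differences with no overlap of each other list. Others were named to account for counts, runs and receptor pairs. The alternatives were array medians subtracted, a robust prior, an unmoderated statistic, the replicate number as a block, single probe sets, only the 9969 genes of larger SD over the arrays, and each array left out.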

Additional observations from a re-analysis of the deposited data

How the results depend on the processing

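Cxcl14 was higher in cKO under every alternative run, and its adjusted p lay between 0.514 and 1 except when only the 9969 genes of larger SD over the 4 arrays were tested. There limma called it (adjusted p = 0.00298, difference 0.76), with 116 of 9969 genes called against 0 of 19938; the prior degrees of freedom were 66.5 against 1.52, and the standard error of Cxcl14 was 0.16 against 0.06. This alternative drops the genes whose 4 values are closest together. The SD over the 4 arrays includes the gap between the groups, so the filter used the difference that was then tested. The call is therefore not separate support for a difference of Cxcl14. Cxcl14 was then the 1 member called, with 6 members higher and 1 lower with no overlap and a member median of 0.064; the medians were 0.042 for the NF-kappaB pathway, 0.046 for the atypical receptors and regulators and -0.064 for the cytokines and their receptors. With 1 array left out, members called stayed at 0, members higher with no overlap ran from 11 to 27 and lower from 6 to 19, since 3 arrays separate more easily. The member median then lay between -0.0070 (without cKO replicate 2) and 0.039, the NF-kappaB median between -0.039 and 0.0096, the atypical receptor median between -0.031 and 0.052, and the signalling median between -0.0087 and 0.033. The range was -0.082 to 0.39 for Ccl11, -0.63 to 0.12 for Ccl2, -0.18 to 0.50 for Cx3cl1, -0.15 to 0.0068 for Cxcl12, -0.028 to 0.23 for Cxcr6, -0.031 to 0.18 for Ackr3, -0.18 to 0.041 for Ccl19, -0.33 to 0.46 for Cxcl1, -0.57 to 0.40 for Nfkbia and -0.54 to 0.25 for Nfkbiz. Apart from what the alternatives' construction shows, the cause was not tested.

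Arrays with the same replicate number deviated together (correlation 0.304 over 19938 genes), but the labels give only a number, not a pairing. With the replicate block 0 genes passed, 1625 had an unadjusted p under 0.05 against 1053, and Cxcl14 and Cxcr4 each had an adjusted p of 0.514 (limma), the standard error of Cxcr4 being 0.045 against 0.19. The unmoderated statistic also called 0 genes, with 937 at an unadjusted p under 0.05. The smallest adjusted p of any gene in the table was 0.345 (limma, all 4 arrays), so a count of 0 does not show that differences are absent.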
